A study of Mus musculus with 6 samples.

Results

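Genes of the interferon response and of antigen presentation were measured in whole uteri collected at 3.5 dpc, the day before embryos attach, from female mice of the genotypes Arid1a d/d and Arid1a f/f. The list held 40 genes chosen by name. Of these, 38 had a probe set that the platform annotation assigns to that gene alone, out of 18193 genes with such a probe set, while Isg15 and Ifi44 had no such probe set and were not analysed here. The paper's own list of regulated genes does name a probe set for Ifi44, as lower in Arid1a d/d uteri by fold change. Its absence here thus comes from the annotation used and does not mean that the arrays lack it. The 38 comprised 22 interferon response genes, 10 genes of the MHC class I pathway and 6 of the MHC class II pathway. Each gene was read from its brightest probe set by the mean log2 intensity over the 6 arrays.

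Each genotype was represented by 3 Affymetrix arrays, 1 per sample. Arid1a f/f mice carry floxed Arid1a alleles with no Cre, and Arid1a d/d mice carry the same alleles together with Cre made from the Pgr locus, which deletes Arid1a in PGR-expressing cells. Cells that do not express PGR are not targeted by that design, and the genotypes also differ by the Cre allele itself. All females were mated with C57BL/6 males, and the labels do not say whether a sample is 1 mouse, and p-values reflect only how much these samples vary.

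Interferons are secreted proteins that act through cell surface receptors, JAK kinases and STAT and IRF transcription factors to switch on a large set of antiviral and immune genes. Type I interferons drive mainly the ISGF3 complex, which includes STAT2 and IRF9 and binds the interferon-stimulated response element (ISRE) of promoters, while interferon gamma acts through gamma-activated sites (GAS) and induces guanylate-binding proteins, immunity-related GTPases and MHC genes. MHC class I molecules present peptides made by the proteasome on almost all cells, whereas class II molecules are made mainly by dendritic cells, macrophages and B cells. In the pregnant uterus these genes are known for the response to signals of the conceptus and for the handling of fetal antigens.

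The table gives RMA intensities on a linear scale with no detection calls, and its median over all values was 3.12, so values near that level cannot be told from background. Arid1a, the deleted gene, averaged 91.4 ± 10.9 (SD, n = 3) on the Arid1a f/f arrays against 54.0 ± 3.61 (SD, n = 3) on the Arid1a d/d arrays, a log2 difference of -0.76 (adjusted p = 0.0120, limma). The sources used here do not place its probe sets inside or outside the floxed exons. Of 8 genes that mark uterus, among them Pgr and Esr1, 0 were below the median of all intensities in both genotypes. Differences are given on the log2 scale as Arid1a d/d minus Arid1a f/f, and a gene is said to have risen or fallen where its adjusted p from limma was under 0.05 over all probe sets.

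Few interferon and antigen presentation genes differed between the genotypes. Among the 38 genes, 1 was higher in Arid1a d/d uteri (Bst2) and 2 were lower (Ifit3 and Ddx58), and 35 did not pass the test. These shares, 2.63% and 5.26%, lay close to those over all 18193 genes, of which 3.37% were higher and 4.06% lower. The groups of arrays did not overlap for 2 genes with higher values in Arid1a d/d (5.26%, against 13.4% of all genes) and for 6 with lower values (15.8%, against 16.0% of all genes). At an unadjusted p under 0.05 in limma, 2 were higher (5.26%, against 11.4% of all genes) and 6 lower (15.8%, against 13.5% of all genes). The differences of 30 of the 38 lay below 0 (78.9%, against 53.5% of all genes), with a median of -0.16 against -0.018 over all genes, and these counts carry no test because the genes share arrays. Leaving out Arid1a d/d replicate 3 moved that median to -0.28, and leaving out replicate 2 to -0.082.

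**Figure D1:**
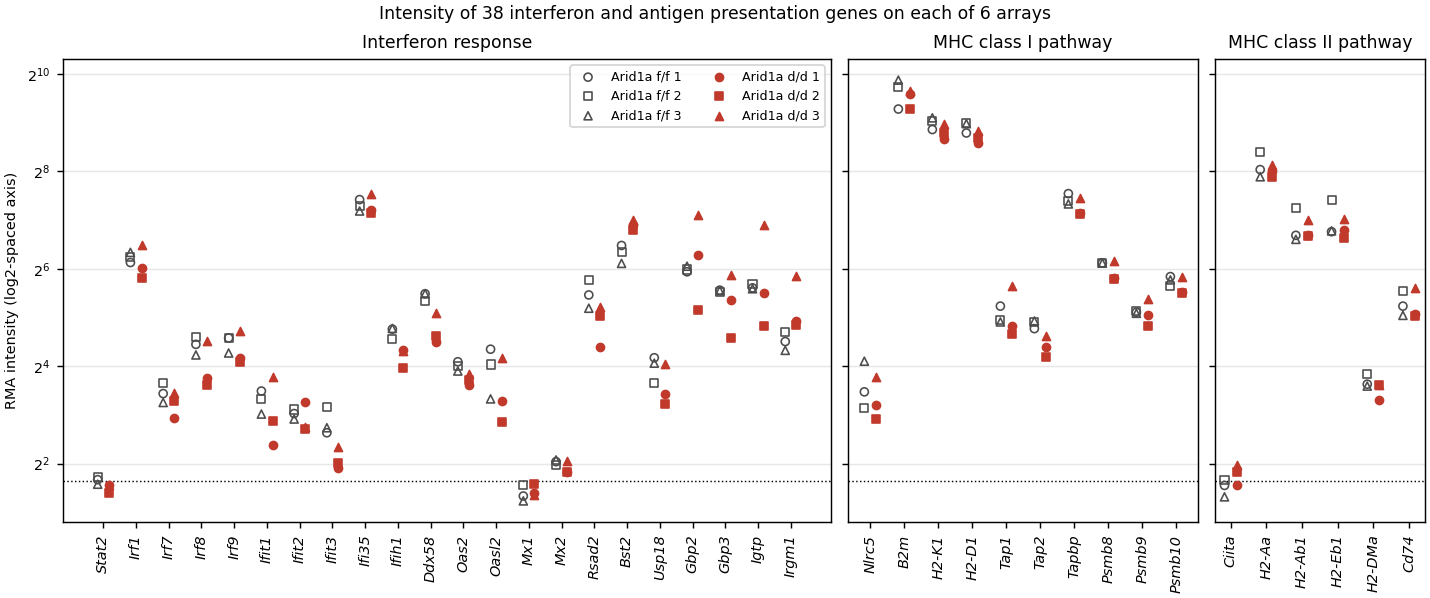
RMA intensity on a log2-spaced axis (vertical) of each of the 38 genes (horizontal) on the 3 Arid1a f/f arrays (open symbols) and the 3 Arid1a d/d arrays (filled symbols), with the median of all intensities as a dotted line. The filled symbols of Ddx58 and Ifit3 lie below the open ones and those of Bst2 above, while Gbp2 and Igtp have a filled triangle, Arid1a d/d replicate 3, far above all other symbols.

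Of the RNA sensor genes in the list, Ddx58 fell and Ifih1 did not pass the test, and on both the genotypes did not overlap. Ddx58, which encodes RIG-I, a helicase that detects viral RNA, had intensities of 44.9, 40.6 and 44.9 on the Arid1a f/f arrays and 22.7, 24.6 and 33.9 on the Arid1a d/d arrays. The highest Arid1a d/d value was that of replicate 3. Ddx58 fell, with a log2 difference of -0.70 (standard error 0.15, adjusted p = 0.0365, limma), and a dimmer probe set of the same gene had -0.76 (adjusted p = 0.0429, limma). Its dimmest probe set, with means of 2.58 and 2.26, lay below the median of all intensities. Ifih1 encodes MDA5, the companion sensor of long double-stranded RNA. Its intensities were 27.1, 23.6 and 27.4 in Arid1a f/f and 20.1, 15.5 and 19.98 in Arid1a d/d. The log2 difference of Ifih1 was -0.50 (standard error 0.13), which missed the threshold (adjusted p = 0.0690, limma).

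Antiviral effectors gave a mixed picture. Ifit3, which encodes an RNA-binding interferon-induced protein, had 6.20, 8.94 and 6.66 in Arid1a f/f uteri and 3.75, 4.05 and 5.07 in Arid1a d/d uteri. These groups did not overlap, and Ifit3 fell, with a log2 difference of -0.75 (standard error 0.17, adjusted p = 0.0389, limma). Its Arid1a d/d values lay close to the median of all intensities, which limits the size of that difference, and with 4 added to each intensity it was -0.44 and did not pass (adjusted p = 0.0827, limma). Its relatives did not pass, Ifit1 at -0.26 (adjusted p = 0.732, limma) and Ifit2 at -0.11 (adjusted p = 0.787, limma). Bst2, which encodes tetherin, a membrane protein that holds budding virions on the cell surface, had 89.2, 81.1 and 69.1 in Arid1a f/f and 119.7, 110.9 and 128.8 in Arid1a d/d. All its Arid1a d/d values lay above the Arid1a f/f values. Bst2 rose, with a log2 difference of 0.59 (standard error 0.12, adjusted p = 0.0311, limma). Ddx58 and Ifit3 each lost the call when any 1 array other than Arid1a d/d replicate 3 was left out, with differences of -0.59 to -0.75 and -0.60 to -0.86, and Bst2 when any 1 array other than Arid1a f/f replicate 1 was left out, with 0.49 to 0.65. With 4 added to each intensity Ddx58 had -0.63 and missed the call as well (adjusted p = 0.0599, limma). In the methods' t-test these 3 genes did not pass after adjustment (adjusted p = 0.236 for Ddx58, 0.250 for Ifit3 and 0.195 for Bst2).

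Rsad2, which encodes viperin, an antiviral radical SAM enzyme, had 44.1, 54.7 and 36.5 in Arid1a f/f and 20.9, 32.6 and 37.3 in Arid1a d/d. The genotypes overlapped by 1 array, and the difference of -0.60 (standard error 0.22, adjusted p = 0.191, limma) did not pass. Oas2, an oligoadenylate synthetase gene, had 17.04, 15.9 and 14.9 in Arid1a f/f and 12.3, 13.1 and 14.3 in Arid1a d/d, a difference of -0.27 (adjusted p = 0.203, limma) without overlap. The oligoadenylate synthetase-like gene Oasl2 had -0.47, and Usp18, which encodes the protease that removes ISG15 from proteins and dampens type I receptor signalling, had -0.40. For these genes the Arid1a d/d arrays overlapped the Arid1a f/f arrays and neither passed. Ifi35 had a difference of 0.0053 on its brightest probe set and -0.24 and -0.11 on the others. Mx2 had -0.13 and Mx1 0.075, and the means of Mx1, 2.60 and 2.73, lay below the median of all intensities.

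Transcription factors of the pathway did not pass the test. Irf8, a factor of myeloid cells, had 21.8, 24.4 and 18.8 in Arid1a f/f and 13.6, 12.2 and 22.9 in Arid1a d/d. Arid1a d/d replicate 3 lay within the Arid1a f/f range and the other Arid1a d/d arrays below it. The difference of -0.46 (standard error 0.22, adjusted p = 0.315, limma) passed without Arid1a d/d replicate 3, at -0.74, while a dimmer probe set of Irf8 had 0.34. Irf1, the main IRF induced by interferon gamma, had 70.0, 75.6 and 80.8 against 64.9, 56.5 and 89.8, a difference of -0.13 (standard error 0.17, adjusted p = 0.774, limma). Irf9, the DNA-binding part of ISGF3, had 23.9, 23.9 and 19.3 against 18.0, 16.99 and 26.6, a difference of -0.15 (standard error 0.18, adjusted p = 0.749, limma). On both genes Arid1a d/d replicate 3 gave the highest value of the 6 arrays and Arid1a d/d replicate 2 the lowest. Irf7, which amplifies type I interferon production, had 10.8, 12.6 and 9.54 against 7.70, 9.73 and 10.97 (-0.22, standard error 0.16, adjusted p = 0.528, limma). Stat2 had 3.18, 3.30 and 2.98 against 2.93, 2.64 and 2.96 (-0.15, standard error 0.099, adjusted p = 0.497, limma), so close to the median of all intensities that its level is uncertain.

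**Figure D2:**
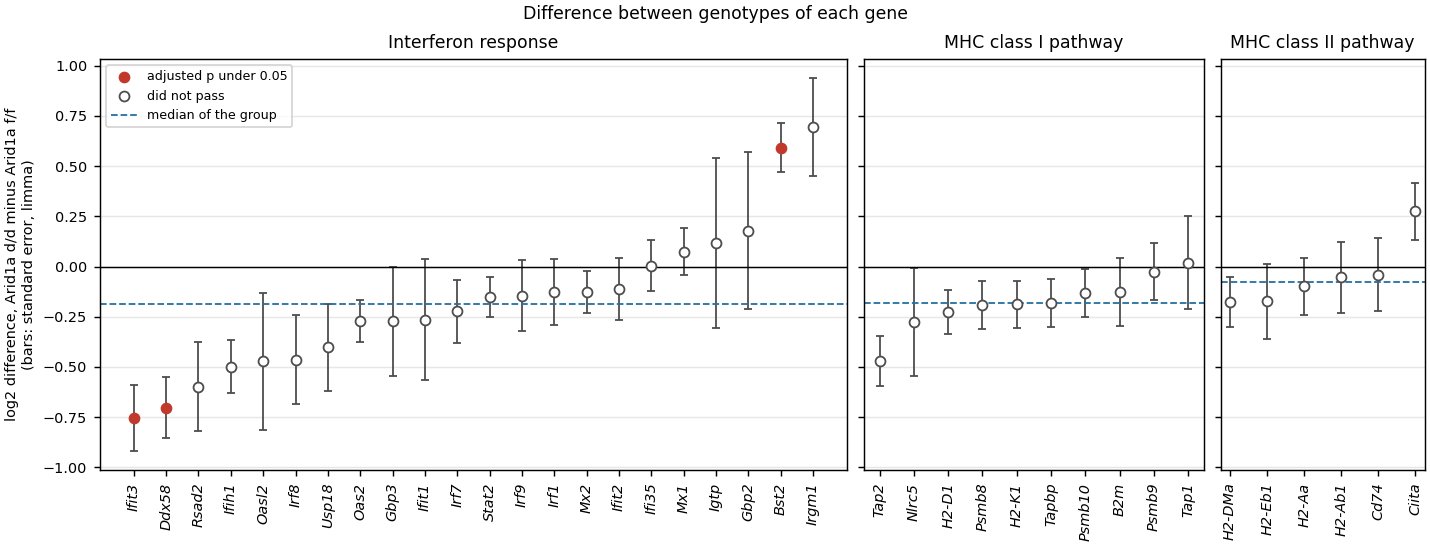
Log2 difference of Arid1a d/d from Arid1a f/f (vertical) of each gene (horizontal), ordered within its group, with standard errors from limma as bars and the median of the group as a dashed line. Filled points passed the test, and they are Ifit3, Ddx58 and Bst2. The medians were -0.19 for the interferon response, -0.18 for class I and -0.075 for class II, and Igtp and Gbp2 have the longest bars.

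The guanylate-binding proteins (GBPs) and immunity-related GTPases (IRGs), which act in defence against intracellular parasites and bacteria, varied more among Arid1a d/d uteri than between the genotypes. Igtp, an IRG gene, had 48.8, 51.6 and 48.2 in Arid1a f/f and 45.5, 28.5 and 119.7 in Arid1a d/d. Gbp2 had 61.3, 63.4 and 66.4 against 77.4, 35.4 and 136.8. On both genes Arid1a d/d replicate 2 was the lowest and Arid1a d/d replicate 3 the highest of the 6 arrays, and the Arid1a f/f arrays lay close together. Gbp3 had 47.2, 46.0 and 46.9 against 41.3, 23.8 and 58.7, with the same order of arrays. Irgm1, which regulates the other IRGs, had 22.7, 26.1 and 20.04 against 30.6, 28.9 and 57.4, all Arid1a d/d values lying above the Arid1a f/f values. Its difference of 0.70 (standard error 0.24, adjusted p = 0.162, limma) did not pass and was 0.38 without Arid1a d/d replicate 3. The differences of Gbp2, Igtp and Gbp3 were 0.18 (standard error 0.39), 0.12 (standard error 0.42) and -0.27 (standard error 0.27), and none of these passed in limma (adjusted p = 0.875, 0.930 and 0.684). Without Arid1a d/d replicate 3 those of Gbp2 and Igtp were -0.28 and -0.46, and without Arid1a d/d replicate 2 that of Gbp3 was 0.077.

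The same order of arrays held for GBP and IRG genes outside the list of 40, a family set together after its values were seen. Iigp1 had 51.0, 19.0 and 109.5 on Arid1a d/d replicates 1, 2 and 3 and 47.6 to 53.8 on the Arid1a f/f arrays. Gbp6 had 21.6, 11.4 and 75.9 on Arid1a d/d replicates 1, 2 and 3 and 16.0 to 26.1 on the Arid1a f/f arrays. With Irgm2, Gbp7 and Ifi47, 9 GBP and IRG genes were in the lists used here, and others on the arrays were not looked at. Arid1a d/d replicate 3 was the highest of the 6 arrays on 9 of these 9, against 18.1% of all genes. Arid1a d/d replicate 2 was the lowest on 8 of 9, against 23.3% of all genes. The ratio of Arid1a d/d replicate 3 to replicate 2 was 1.99 (Irgm1) to 6.68 (Gbp6), and was 4.2 for Igtp and 3.86 for Gbp2. Ranked by that ratio among 18193 genes, Gbp6 was at place 3, Iigp1 at 4, Igtp at 7, Gbp2 at 9 and Irgm2 at 14. Gbp3 was at 38, Gbp7 at 39, Ifi47 at 70 and Irgm1 at 106. These are values of single arrays with no replicate behind each, and no test was made of them.

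**Figure D3:**
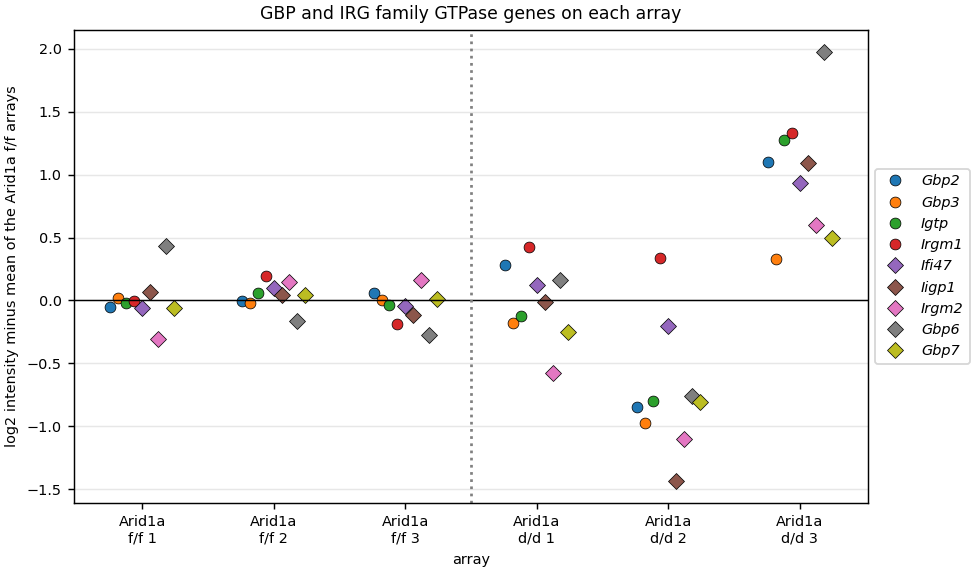
Log2 intensity minus the mean of the Arid1a f/f arrays (vertical) of 9 GBP and IRG genes on each of the 6 arrays (horizontal), with circles for genes of the list of 40 and diamonds for others. On Arid1a d/d replicate 3 all 9 points lie above 0, with a median of 1.09, while on replicate 2 all but Irgm1 lie below 0, with a median of -0.81, and on replicate 1 the median is -0.013.

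The promoters of the genes that passed the test, and of Irgm1, which had the largest difference among genes that did not pass, are shown because the ISRE is the element through which the type I pathway reaches such genes. They are the 250 bases before the annotated start, 5′ to 3′ on the gene's strand, from RefSeq for GRCm38.p6: Ifit3 at chr19:34583279-34583528 (plus strand), Ddx58 at chr4:40239826-40240075 (minus strand), Bst2 at chr8:71537473-71537722 (minus strand) and Irgm1 at chr11:48871421-48871670 (minus strand). Capitals mark every match to an ISRE core, GAAANNGAA on either strand, and matches that overlap run together.
Ifit3: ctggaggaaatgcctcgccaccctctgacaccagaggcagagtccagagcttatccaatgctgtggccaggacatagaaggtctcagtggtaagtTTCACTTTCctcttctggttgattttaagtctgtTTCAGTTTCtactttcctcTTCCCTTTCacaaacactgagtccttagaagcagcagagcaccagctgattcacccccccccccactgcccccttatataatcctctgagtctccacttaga
Ddx58: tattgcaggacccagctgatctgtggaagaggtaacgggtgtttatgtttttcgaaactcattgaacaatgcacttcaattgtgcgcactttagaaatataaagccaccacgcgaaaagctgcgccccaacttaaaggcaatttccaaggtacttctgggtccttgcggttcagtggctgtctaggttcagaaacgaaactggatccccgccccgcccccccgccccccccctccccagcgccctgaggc
Bst2: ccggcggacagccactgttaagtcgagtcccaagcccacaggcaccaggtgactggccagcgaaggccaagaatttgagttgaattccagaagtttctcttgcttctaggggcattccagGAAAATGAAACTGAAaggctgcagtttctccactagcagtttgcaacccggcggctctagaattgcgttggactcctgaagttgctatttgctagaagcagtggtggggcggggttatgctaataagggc
Irgm1: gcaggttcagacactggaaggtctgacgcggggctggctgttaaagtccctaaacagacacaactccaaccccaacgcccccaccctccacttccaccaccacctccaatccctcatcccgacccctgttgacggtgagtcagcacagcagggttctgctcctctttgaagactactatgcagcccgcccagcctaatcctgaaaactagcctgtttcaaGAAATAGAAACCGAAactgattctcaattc
Ifit3, which fell, held 3 matches and Bst2, which rose, held 2 that overlap, as did Irgm1, so genes with matches were found on both sides of 0. Ddx58 had no match in the part shown and 1 that begins at base 4 after the start.

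Promoters of 300 bases, which add 50 bases after the start, were matched by symbol for 29 of the 38 genes. The ISRE core was present in 12 of these 29 genes and the GAS core, TTCNNNGAA on either strand, in 7. By group, the ISRE core was found in 11 of 18 interferon response genes, 1 of 8 class I genes (B2m) and 0 of 3 class II genes. Counted over promoters, 33.3% of the 36 of these genes held the ISRE core against 8.56% of 32851 promoters in the table, and 19.4% held the GAS core against 8.30%. Igtp held both cores, beginning 34 and 45 bases before the start, and Bst2 held both, its GAS core overlapping only the ISRE core farther from the start. A match describes the letters and not a bound site.

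Genes of the class I pathway did not pass the test, with 0 of 10 higher and 0 lower (0 and 1 at an unadjusted p under 0.05 in limma, against 11.4% and 13.5% of all genes, and 0 and 0 in the methods' t-test after adjustment). The differences were -0.47 to 0.020 with a median of -0.18, and 9 of 10 lay below 0. Their median moved to -0.28 when Arid1a d/d replicate 3 was dropped and to -0.10 when replicate 2 was, and was -0.096 as the mean of each gene's probe sets. Tap2, a subunit of the transporter that carries peptides into the endoplasmic reticulum, had 27.3, 30.01 and 30.4 in Arid1a f/f and 21.0, 18.2 and 24.5 in Arid1a d/d. The genotypes did not overlap on Tap2, whose difference of -0.47 (standard error 0.13, adjusted p = 0.0753, limma) did not pass. Its partner Tap1 had 37.6, 30.9 and 30.03 against 28.5, 25.4 and 50.1, a difference of 0.020 (standard error 0.23, adjusted p = 0.981, limma). Here Arid1a d/d replicate 3 was again the highest of the 6 arrays. Nlrc5, the transactivator of class I genes, had 11.1, 8.87 and 17.2 against 9.21, 7.58 and 13.7, a difference of -0.27 (standard error 0.27, adjusted p = 0.678, limma).

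The class I heavy chain genes H2-D1 and H2-K1 had differences of -0.23 (standard error 0.11, adjusted p = 0.322, limma) and -0.19 (standard error 0.12, adjusted p = 0.467, limma). H2-D1 had 442.5, 509.2 and 505.1 in Arid1a f/f and 383.2, 409.9 and 452.9 in Arid1a d/d, overlapping by 1 array. Both were read from probe sets that can detect several transcripts of this close-knit gene family, so their identity is uncertain. H2-D1 has 9 probe sets, with differences from -0.38 to 0.21. B2m, which encodes the light chain of all class I molecules, had 622.2, 853.0 and 939.0 against 767.4, 622.0 and 800.5 (-0.13, standard error 0.17, adjusted p = 0.773, limma), and a dimmer probe set had -0.40 (adjusted p = 0.170, limma). The immunoproteasome subunit genes Psmb8, Psmb9 and Psmb10 had differences of -0.19, -0.026 and -0.13, and Tapbp, which encodes tapasin, the bridge between TAP and class I, had -0.18.

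Genes of the class II pathway differed least, with 0 of 6 higher and 0 lower (0 and 0 at an unadjusted p under 0.05 in limma, against 11.4% and 13.5% of all genes, and 0 and 0 in the methods' t-test after adjustment). Their differences were -0.18 to 0.28 with a median of -0.075, which was 0.070 without Arid1a f/f replicate 2. H2-Aa had 262.7, 335.9 and 237.2 in Arid1a f/f and 258.9, 236.7 and 278.9 in Arid1a d/d, and H2-Eb1 had 108.5, 171.1 and 109.8 against 111.2, 98.9 and 129.4. These genes encode chains of the class II molecules I-A and I-E. On both, Arid1a f/f replicate 2 was the highest of the 6 arrays, and the other arrays of that genotype lay within the Arid1a d/d range. The brightest probe set of H2-Aa had a difference of -0.097 (standard error 0.14, adjusted p = 0.797, limma), while the others had 0.11, 0.45 and 0.051, and the genotypes did not overlap on the one at 0.45 (adjusted p = 0.127, limma). No probe set of H2-Aa passed, and their directions differ. H2-Ab1 had a difference of -0.052 (standard error 0.18, adjusted p = 0.925, limma) and H2-Eb1 one of -0.17 (standard error 0.19, adjusted p = 0.713, limma). Cd74, which encodes the invariant chain that guides class II molecules to endosomes, had 37.6, 46.6 and 33.0 against 33.5, 32.7 and 48.5, a difference of -0.041 (standard error 0.18, adjusted p = 0.945, limma). H2-DMa, a subunit of the peptide exchange factor of class II, had 12.4, 14.4 and 12.1 against 9.83, 12.3 and 12.3 (-0.18, standard error 0.13, adjusted p = 0.537, limma). Ciita, the transactivator of class II genes, had 2.93, 3.18 and 2.49 against 2.93, 3.56 and 3.94, near the median of all intensities, with a difference of 0.28 (standard error 0.14) that did not pass (adjusted p = 0.355, limma), while its other probe sets had -0.16 and -0.13.

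Arid1a d/d replicate 3 stood above the other Arid1a d/d arrays on most of these genes. It was the highest of the 3 Arid1a d/d arrays for 34 of the 38 genes (89.5%, against 37.8% of all genes), 19 of 22 in the interferon response, 10 of 10 in class I and 5 of 6 in class II. The mean log2 intensity of the interferon response genes ranged from 4.24 to 4.401 in Arid1a f/f and was 4.05, 3.91 and 4.54 on Arid1a d/d replicates 1, 2 and 3. For class I it ranged from 6.50 to 6.62 in Arid1a f/f and was 6.28, 6.18 and 6.63 in Arid1a d/d. Against the mean of the Arid1a f/f arrays, the median difference of the 38 genes was -0.22, -0.32 and 0.061 on Arid1a d/d replicates 1, 2 and 3, beside -0.036, -0.029 and 0.0048 over all genes. Arid1a d/d replicates 1 and 2 thus lay below control on most of these genes, and replicate 3 lay near it.

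In whole uterus, fewer cells of a type and less RNA per cell cannot be told apart, so marker genes of the cells that carry these pathways were measured in the same RNA. Over all genes, 3.37% were higher and 4.06% lower in limma. Of 8 general leukocyte markers, 5 were lower, Ptprc among them at -0.80 (adjusted p = 0.0320, limma), with a median of -0.81. Their summed intensity was 410.6 to 689.4 in Arid1a f/f and 245.6 to 324.3 in Arid1a d/d. Of 12 macrophage markers, 0 were higher and 0 lower in limma (1 and 5 at an unadjusted p under 0.05, against 11.4% and 13.5% of all genes), with summed intensities of 605.5 to 929.8 and 522.9 to 660.2. Of 9 dendritic cell markers, 1 was lower (Itgax, -0.86), with sums of 64.6 to 75.8 and 43.5 to 58.3, and 3 of 9 lay below the median of all intensities in both genotypes. Of 11 T and NK cell markers, 2 were lower (Gzma and Gzmb), with sums of 82.8 to 86.4 and 48.9 to 58.3. Gzma and Gzmb were by far the brightest of that list, with Arid1a f/f means of 32.0 and 19.6, so these sums mostly follow them. The differences of 9 of the 11 lay below 0, with a median of -0.23, while Prf1 and Cd3d had 0.0052 and 0.086. For B cells, 0 of 6 markers passed in limma (0 at an unadjusted p under 0.05), and 5 of 6 lay below the median of all intensities in both genotypes.

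Among non-immune cells, 11 of 12 endothelial markers and 2 of 10 stromal markers were lower in limma, against 4.06% of all genes. Their summed intensities were 634.6 to 658.3 against 281.4 to 338.3 and 7561 to 8463 against 5567 to 6645. The stromal sum follows its brightest genes, among them Dcn with means of 1661 and 796.1. Of the 10 stromal differences 9 lay below 0, with a median of -0.405, Col1a1 at -0.12 and Hand2 at 0.0016. At an unadjusted p under 0.05 in limma, 0 stromal markers were higher and 6 lower, against 11.4% and 13.5% of all genes. Of 11 epithelial markers 1 was higher in limma, against 3.37% of all genes. At an unadjusted p under 0.05 in limma, 6 were higher and 0 lower. The differences of 9 of the 11 lay above 0, with a median of 0.58. The sums of the epithelial markers were 1164 to 1243 in Arid1a f/f and 1216, 2386 and 1652 on Arid1a d/d replicates 1, 2 and 3. Arid1a d/d replicate 2, lowest of all arrays on 24 of the 38 genes (63.2%, against 23.3% of all genes), was thus the array with the highest epithelial sum. The part of these shifts in the values of interferon and antigen presentation genes was not tested.

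**Figure D4:**
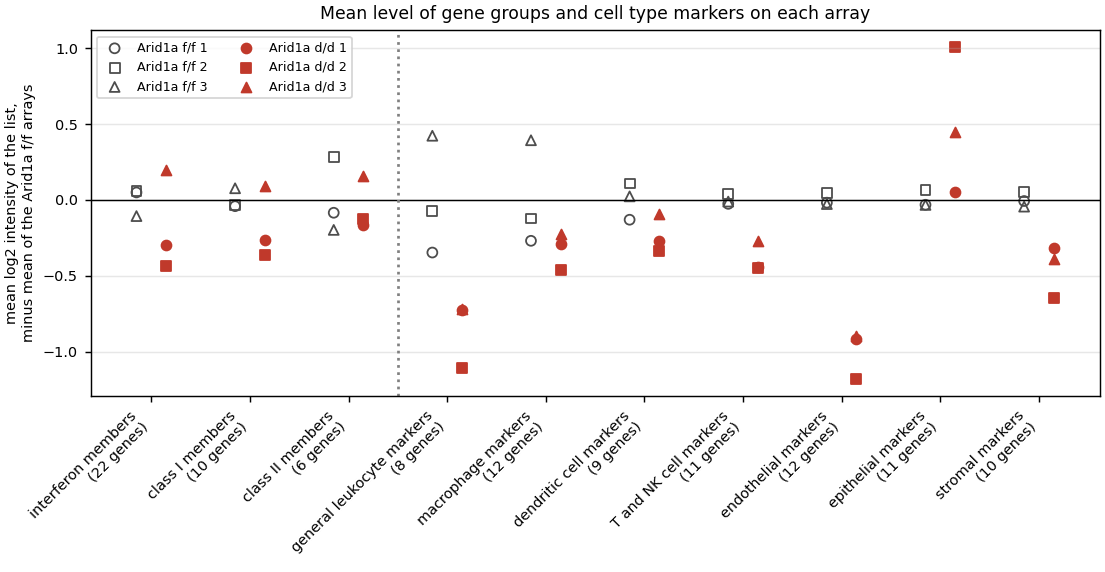
Mean log2 intensity of each gene group or marker list, minus its mean over the Arid1a f/f arrays (vertical), on each array, with open symbols for Arid1a f/f and filled symbols for Arid1a d/d. The 3 groups left of the dotted line have Arid1a d/d replicate 3 (triangle) above 0 and the other Arid1a d/d arrays below it, while the leukocyte and endothelial markers lie below the Arid1a f/f arrays on all 3 Arid1a d/d arrays.

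Upstream of these genes, 16 of 20 listed interferons, receptors and JAK-STAT genes were measured, of which 0 were higher and 1 lower in limma (2 and 6 at an unadjusted p under 0.05, against 11.4% and 13.5% of all genes), with a median of -0.27. Leaving out Arid1a d/d replicate 2 gave a median of -0.15, and it was -0.088 as the mean of each gene's probe sets. The genotypes did not overlap for 1 of these 16 genes with higher values in Arid1a d/d, against 13.4% of all genes. They did not overlap for 7 with lower values, Ifnar2 and Socs3 among them, against 16.0% of all genes. The interferon genes Ifnb1, Ifna4 and Ifng lay below the median of all intensities in both genotypes. Socs3, a feedback inhibitor of cytokine receptors, had 43.2, 66.5 and 70.8 in Arid1a f/f and 31.9, 33.9 and 28.3 in Arid1a d/d, and it fell, with a difference of -0.91 (standard error 0.18, adjusted p = 0.0289, limma). The chains of the type I receptor, Ifnar1 and Ifnar2, had -0.36 (adjusted p = 0.295, limma) and -0.40 (adjusted p = 0.134, limma), and those of the gamma receptor, Ifngr1 and Ifngr2, 0.12 (adjusted p = 0.732, limma) and 0.18 (adjusted p = 0.547, limma), none past the test. Of 18 listed nucleic acid sensing genes 16 were measured, with 1 higher and 0 lower in limma (2 and 2 at an unadjusted p under 0.05, against 11.4% and 13.5% of all genes) and a median of 0.044. Cgas, which encodes the cytosolic DNA sensor, had 11.3, 9.72 and 10.4 against 14.3, 14.8 and 17.2, and it rose, with a difference of 0.55 (adjusted p = 0.0306, limma). Irf3, the factor that sensors activate, had -0.22 (adjusted p = 0.296, limma). The listed RNA sensors outside the 40 genes, Dhx58, Eif2ak2, Tlr3 and Tlr7, had differences of 0.13, 0.13, 0.048 and 0.040, with genotypes that overlapped and none past the test. The means of Tlr7, 2.53 and 2.62, lay below the median of all intensities and those of Dhx58, 3.24 and 3.54, close to it. Little can be said of these genes.

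Among other interferon-stimulated genes 37 of 41 were measured, with 1 higher and 3 lower in limma, beside 3.37% and 4.06% of all genes. At an unadjusted p under 0.05 in limma, 1 was higher and 7 lower, against 11.4% and 13.5% of all genes. The median difference of this list was -0.082. Ifitm1, a membrane protein gene that restricts viral entry, had 363.0, 578.8 and 373.1 in Arid1a f/f and 840.5, 962.4 and 1143.9 in Arid1a d/d. It rose by 1.19 on the log2 scale (adjusted p = 0.0139, limma), while the related Ifitm2 and Ifitm3 had -0.18 and -0.039. Isg20, an exonuclease gene, had 50.0, 44.5 and 42.5 against 21.1, 11.1 and 25.0, and it fell, with a difference of -1.34 (adjusted p = 0.0264, limma). Sp100, a nuclear body gene, and Ifi27, a mitochondrial protein gene, fell as well, at -0.88 (adjusted p = 0.00875, limma) and -0.63 (adjusted p = 0.0306, limma). Of 28 other antigen processing and presentation genes 22 were measured, with 0 higher and 2 lower in limma (2 and 6 at an unadjusted p under 0.05, against 11.4% and 13.5% of all genes) and a median of -0.088. Lgmn, which encodes the lysosomal protease legumain, had 41.0, 54.0 and 59.2 against 26.0, 25.2 and 27.1 (-0.96, adjusted p = 0.00997, limma). Cd1d1, which encodes the molecule that presents lipids to NKT cells, had 25.3, 26.6 and 27.9 against 15.9, 13.2 and 17.02 (-0.80, adjusted p = 0.0104, limma). On Lgmn, Cd1d1, Isg20, Sp100, Ifi27 and Ifitm1 the genotypes did not overlap, which adds little because these genes had already passed the test. Over the whole list of 37 other interferon-stimulated genes, 1 did not overlap with higher values in Arid1a d/d and 7 with lower values. Of the 22 other antigen processing genes, 4 did not overlap with higher values and 6 with lower values. Over all genes, 13.4% did not overlap with higher values in Arid1a d/d and 16.0% with lower values. Sp100 and Cd1d1 passed again in each of 6 fits that dropped 1 array, Lgmn did not pass without Arid1a f/f replicate 2, Ifitm1 without Arid1a f/f replicate 1 or 3, Isg20 without any 1 Arid1a f/f array, and Socs3, Cgas and Ifi27 in 5 of 6 such fits.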

How the data were processed

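Affymetrix mouse arrays, 3 per genotype, measured RNA of whole uterus at 3.5 dpc. The deposited intensity values were made by the authors with RMA and global scaling, per the methods, a method also listed, without a version, in the submitters' processing notes. The trimmed mean target of 100 that the methods state was not met in the table, where it was 16.4 to 17.2 per array, and the files name no genome build. The deposited values lie on a linear scale (1.29 to 4479) and were log2-transformed for the tests. With 3 arrays per genotype, their number limits the precision.

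Genes were assigned to probe sets by the platform annotation, and current symbols (GRCm38.p6) were looked up by Entrez ID. Of 45037 probe sets, 34945 name 1 gene, 932 name several and 9160 are unnamed here. The test of genotype was that of limma 3.58.1 (R 4.3.3), two-sided, after lmFit and eBayes, with p-values adjusted by Benjamini-Hochberg across every probe set and neither filter nor block, and the fit was tested on simulated data. Figures were drawn with matplotlib 3.10.9. The alternatives were other scalings, offsets, filters, variance models, probe sets per gene and thresholds, the methods' t-test, array weights, the replicate number as a block and leaving out each array. The rule gave in full the genes past the test, the 3 with the largest difference each way in each group and the transcription factors, and from each other list up to 5 past the test plus the chains of the type I and gamma receptors and Irf3. Genes, lists and rule were chosen with earlier results of these data known. The GBP and IRG genes, Ifitm2, Ifitm3, Ptprc, Ifnb1, Ifna4, Ifng, Acod1, Cxcl10, Lrp2, S100g, Vit, Sting1 and Mr1 were named outside that rule after their values were seen. So were the sensors Dhx58, Eif2ak2, Tlr3 and Tlr7.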

Additional observations from a re-analysis of the deposited data

How the results depend on the processing

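Across 11 alternatives and 6 fits without 1 array, the difference of 25 of the 38 genes kept its sign and that of 13 changed it at least once. The cause was not tested. Ifi35 turned to -0.052 with quantile normalization, -4.2e-05 with centring on the brighter probe sets, -0.11 as the mean of its probe sets and -0.24 without probe sets open to several transcripts; Ciita turned to -0.0054 and -0.16 under the last pair of settings, and H2-Aa to 0.13 as the mean of its probe sets.

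The labels give replicate numbers but do not say whether same-numbered arrays belong together. Same-numbered arrays deviated together with r = -0.004, 0.047 and 0.14, and other pairs with -0.119 to 0.065, which does not settle pairing. With the number as a block, 0 of the 38 genes were higher and 3 lower, Bst2 missing the call (adjusted p = 0.0505, limma) and Ifih1 passing (adjusted p = 0.0454, limma). The methods' t-test gave 0 higher and 0 lower after adjustment among the 38 and in the 4 lists of other genes, and Arid1a lost its call there at -0.76. At an adjusted p under 0.01, 0 of the 38 were higher and 0 lower, 0 sensing genes were higher, 0 receptor and JAK-STAT genes were lower, 0 other interferon-stimulated genes were higher and 1 lower, and 1 other antigen processing gene was lower. At 0.1, 4 of the 38 were lower, among them 1 in class I, with 3 receptor and JAK-STAT genes and 1 sensing gene lower and 1 other antigen processing gene higher. With 4 added to each intensity, 0 of the 38 and 0 receptor and JAK-STAT genes were lower, and 1 other antigen processing gene was higher, as it was with trend and robust eBayes or without probe sets open to several transcripts.

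Without 1 array, the 38 genes had 0 to 1 higher and 0 to 3 lower, all in the interferon response. The lower receptor and JAK-STAT genes and the higher sensing genes numbered 0 to 1 each. Other interferon-stimulated genes had 0 to 1 higher and 1 to 5 lower, with a median of -0.17 to 0.0038, and other antigen processing genes had 1 to 3 lower. The median was -0.28 to -0.082 over the 38 genes, -0.34 to -0.091 for the interferon response, -0.28 to -0.10 for class I, -0.19 to 0.070 for class II, -0.31 to -0.15 for receptors and JAK-STAT genes, 0.015 to 0.14 for sensing genes and -0.12 to -0.0030 for other antigen processing genes. Where leaving out an array changed a sign, the difference was -0.31 to 0.019 for Irf1, -0.64 to 0.049 for Ifit1, -0.11 to 0.079 for Ifi35, -0.28 to 0.69 for Gbp2, -0.57 to 0.077 for Gbp3, -0.46 to 0.58 for Igtp, -0.28 to 0.21 for Tap1, -0.17 to 0.11 for Psmb9, -0.20 to 0.045 for H2-Aa, -0.17 to 0.15 for H2-Ab1, -0.28 to 0.043 for H2-Eb1, -0.22 to 0.094 for Cd74 and -0.0013 to 0.22 for Ifngr1. Nlrc5 (-0.51 to -0.011), B2m (-0.30 to -0.0057), Irf9 (-0.35 to -0.024) and Ifit2 (-0.29 to -0.012) kept their sign but came close to 0. Probe sets near the median intensity, such as those of Stat2, Mx1 and Ciita, limit what can be said of these genes.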

Other observations

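The genes that separated Arid1a d/d replicate 3 most from replicate 2 were led by Acod1, which encodes the enzyme that makes itaconate, and by Cxcl10, a chemokine gene induced by interferon gamma. Cxcl10 had 5.33, 3.47 and 25.8 on Arid1a d/d replicates 1, 2 and 3 and 4.36 to 4.76 on the Arid1a f/f arrays. Acod1 had 18.9, 8.23 and 67.4 on Arid1a d/d replicates 1, 2 and 3 and 54.0 to 83.6 on the Arid1a f/f arrays, so that for this gene replicate 3 was the Arid1a d/d array within the control range. Neither passed the comparison of genotypes (adjusted p = 0.585 and 0.182, limma). The same ranking held genes outside all lists used here, with Lrp2 at place 5, S100g at 6 and Vit at 10. Lrp2 had 4.49, 3.07 and 16.2 on Arid1a d/d replicates 1, 2 and 3 and 45.5 to 63.8 on the Arid1a f/f arrays. S100g had 115.0, 25.1 and 132.8 on Arid1a d/d replicates 1, 2 and 3 and 269.7 to 512.8 on the Arid1a f/f arrays. The order of these arrays is thus not particular to interferon genes.

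Sting1, which encodes the adaptor downstream of the DNA sensor, had 32.3 on Arid1a d/d replicate 2 and 11.3 to 19.8 on the other 5 arrays, the opposite of that array's place on the GBP and IRG genes. Mr1, which encodes a class I-like molecule that presents vitamin B metabolites, had 10.5, 12.5 and 8.27 in Arid1a f/f and 8.23, 3.66 and 5.47 in Arid1a d/d, a difference of -0.91 (adjusted p = 0.105, limma) that did not pass.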
